A study of Saccharomyces cerevisiae with 8 samples.

Results

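Precursors of the large ribosomal subunit (LSU) of Saccharomyces cerevisiae were compared at a late and an early stage of maturation in strains that carried no MNase, so that every cDNA end mapped in 25S rRNA arose without a tethered nuclease. All 3396 nucleotides of 25S rRNA were taken, of 10000 positions in the deposited rDNA table, and matched by position between the 2 purifications. The late particles, called 25S-preLSUs, were purified via Lsg1-TAP from strain Y3389 (LSG1::LSG1-TAP). The early particles, called 27SB-preLSUs, came from strain Y2601 by way of Noc3-TAP (NOC3::NOC3-TAP). Both strains derive from BY4741, a laboratory haploid of the S288c background that lacks HIS3, LEU2 and URA3, and both were grown in YPD and received the same calcium treatment that activates MNase in the fusion strains. The late purification started from 2 litres of culture and the early one from 6 litres, and the tagged factor and the strain differed as well. Effects of the scale of the purification, the tagged factor, the strain and the stage of maturation therefore cannot be told apart. There was 1 library for each precursor without MNase, and differences have no replicate check. The other 6 libraries of the series, from strains with MNase fused to rpL5, rpL27 or rpL35 in each purification, served as a second view of each stop. They are neither replicates of the strains without MNase nor of each other.

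During LSU maturation the 27SB pre-rRNA, which still joins 5.8S rRNA to 25S rRNA through the internal transcribed spacer ITS2, is bound by a nuclear set of assembly factors that includes Noc3. Removal of ITS2 generates the 5' end of 25S rRNA, and the particle is then exported to the cytoplasm, where the GTPase Lsg1 acts in the last steps before translation. Most base and ribose modifications of 25S rRNA are thought to be placed early, by site-specific methyltransferases and by small nucleolar RNAs that guide methylation of the 2'-hydroxyl. A reverse transcriptase stops at the end of its template, at some modified bases and at stable structures. The cDNA then ends on the modified nucleotide or, more often, 1 nucleotide before it in the direction of synthesis, which is 3' of it in the RNA.

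The measurement was the termination to coverage ratio (TCR), given here in percent, which tells what share of the cDNAs that reach a nucleotide stops at it. It is a level within 1 library and does not depend on the amount of RNA. The deposited noise estimate is the TCR that the choice of priming sites and fragment lengths alone gave near a nucleotide in any of the 4 libraries of a purification, and its median over 25S rRNA was 0.941% for 25S-preLSUs and 1.07% for 27SB-preLSUs. A nucleotide was counted as a stop where its TCR was at least 5% and above the noise of its own purification. A difference was called where the higher of the 2 TCR values was a stop, was over 2 times the other and exceeded it by more than either noise estimate. The depth at single nucleotides is unknown, so no interval could be given, and TCR values 5' of a strong stop rest on the few cDNAs that passed it. The 25S rRNA described here corresponds to RDN25-1 on chromosome XII of the R64 assembly, from 451786 to 455181 on the reverse strand, with nucleotide 1 at 455181. It is an exonic, non-coding RNA gene repeated in the rDNA array.

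The labelled particles were checked at the ITS2 boundary. ITS2 is 232 nucleotides long, and 212 of these were listed at a TCR of 0 in 25S-preLSUs without MNase, against 41 in 27SB-preLSUs without MNase. A TCR of 0 says nothing of the coverage behind it, so these zeros do not measure how much ITS2 was left. The last nucleotides of 25S rRNA were not measurable, since every library of 25S-preLSUs was at 0 in the 124 nucleotides at the 3' end and every library of 27SB-preLSUs in the last 141. The library of 25S-preLSUs without MNase stood apart from the other 3 libraries of its purification. It had 84 stops, against 56, 53 and 74 with MNase-rpL5, MNase-rpL27 and MNase-rpL35, whereas the library of 27SB-preLSUs without MNase had 62 stops, within the 58 to 69 of its fusion libraries. The results below are therefore given with the fusion libraries beside them.

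Stops without MNase were more numerous in 25S-preLSUs than in 27SB-preLSUs, and fewer of them were common to both precursors than were found in 1 alone. With the fusions the counts had no such order, with 56 against 58 for MNase-rpL5, 53 against 69 for MNase-rpL27 and 74 against 59 for MNase-rpL35. Of 110 nucleotides that were a stop in at least 1 library, 36 were a stop in both, which is 42.9% of the 84 stops of 25S-preLSUs and 58.1% of the 62 stops of 27SB-preLSUs. A further 48 were a stop in 25S-preLSUs alone and 26 in 27SB-preLSUs alone. A difference was called at 52 nucleotides higher in 25S-preLSUs, 1.53% of the 3396 tested, and at 27 higher in 27SB-preLSUs, 0.795% of those tested. After nucleotides within 2 of each other had been joined, these made 39 and 23 sites. The late-higher nucleotides lay in most parts of the molecule with a cluster at the 5' end, and the early-higher ones lay beyond nucleotide 200. Over all 3396 nucleotides the profiles had a Spearman rank correlation of 0.56, a description across nucleotides, which share the depth of their library, and not across samples. Within purifications the correlation lay between 0.61 and 0.65 for the library of 25S-preLSUs without MNase against its 3 fusion libraries, and between 0.67 and 0.71 for that of 27SB-preLSUs. Between purifications it was 0.62, 0.52 and 0.62 for the MNase-rpL5, MNase-rpL27 and MNase-rpL35 pairs. These values overlapped those within 25S-preLSUs.

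**Figure D1:**
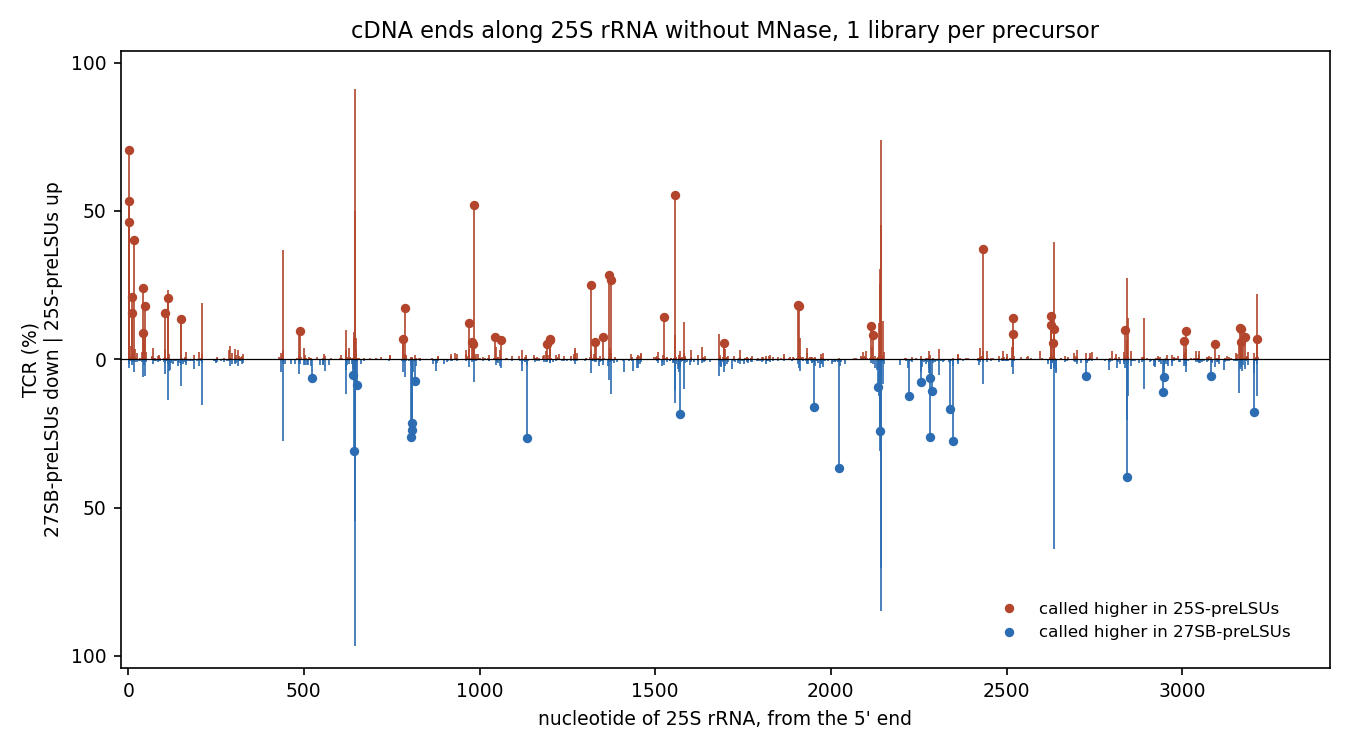
TCR in percent at each nucleotide of 25S rRNA in the library without MNase of 25S-preLSUs (upward lines) and of 27SB-preLSUs (downward lines), with dots on called differences. Both directions share the tallest stop next to m1A645, the first nucleotides carry a stop in 25S-preLSUs alone, and called differences higher in 27SB-preLSUs gather between nucleotides 2221 and 2348.

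The 5' end of mature 25S rRNA was the site with the largest difference. The TCR at nucleotides 1, 2 and 3 was 53.5%, 70.6% and 46.3% in 25S-preLSUs, against 0.222%, 1.66% and 2.80% in 27SB-preLSUs. Over a window of 3 nucleotides, which takes 1 minus the product of the shares that read through, the stop reached 92.7% in 25S-preLSUs, against 4.85% in 27SB-preLSUs. The fusion libraries gave 91.1% to 93.1% in 25S-preLSUs and 3.78% to 11.1% in 27SB-preLSUs, and the purifications did not overlap in any library. In 27SB-preLSUs the highest value of the first 3 nucleotides was on nucleotide 3, and in 25S-preLSUs it was on nucleotide 2. It is the end that ITS2 processing is known to leave.

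The highest TCR values of single nucleotides in both precursors lay at the 1-methyladenosines of 25S rRNA, whose methyl group sits on the face of the base that pairs. At m1A645, placed by Rrp8 (XII, 454537), the window TCR was 95.9% in 25S-preLSUs, against 98.95% in 27SB-preLSUs. The fusion libraries lay at 97.9% to 98.3% in 25S-preLSUs and 99.06% to 99.4% in 27SB-preLSUs. All 4 values of 25S-preLSUs were thus below all 4 of 27SB-preLSUs, but by a small margin, and the difference was largest without MNase. The highest single nucleotide was 646, directly 3' of the modified base, with 91.1% in 25S-preLSUs, against 96.7% in 27SB-preLSUs. The cDNAs that passed 646 then stopped at A645 in 49.9% and 54.4% of cases in 25S-preLSUs and 27SB-preLSUs. At 644 the TCR was 7.42% in 25S-preLSUs, against 30.8% in 27SB-preLSUs, a called difference. The fusion libraries had 28.5% to 32.0% at 644 in 25S-preLSUs and 28.6% to 47.6% in 27SB-preLSUs, so the library of 25S-preLSUs without MNase was alone in its low value.

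At m1A2142, placed by Bmt2 (XII, 453040), the window TCR was 87.1% in 25S-preLSUs, against 96.6% in 27SB-preLSUs. The fusion libraries had 86.1% to 94.0% in 25S-preLSUs and 96.1% to 99.07% in 27SB-preLSUs, again without overlap. The place of the highest stop differed. In 25S-preLSUs it was A2142 itself with 73.9%, while 2143 had 45.4%, and in 27SB-preLSUs it was 2143 with 84.9%, while A2142 had 70.2%. At 2143 the 3 fusion libraries of 25S-preLSUs lay between 45.8% and 56.3%, and those of 27SB-preLSUs between 83.0% and 94.8%. cDNAs of 27SB-preLSUs thus ended more often directly 3' of the modified base in each of the 4 libraries. The ratio at 2143 was below the 2-fold limit, so it was not called. A called difference, higher in 27SB-preLSUs, lay at 2141, with 9.38% in 25S-preLSUs, against 24.3% in 27SB-preLSUs, where the purifications overlapped in the fusion libraries.

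The 3-methyluridines gave intermediate stops. At m3U2634, a product of Bmt5 (XII, 452548), the window TCR was 48.7% in 25S-preLSUs, against 66.0% in 27SB-preLSUs. The fusion libraries did not keep that order, with 84.0% to 89.99% in 25S-preLSUs and 61.2% to 92.9% in 27SB-preLSUs. Both libraries without MNase were among the lower values of the series at this nucleotide, together with that of 27SB-preLSUs with MNase-rpL27. At U2634 itself the TCR was higher in 25S-preLSUs, with 10.2% against 2.85% in 27SB-preLSUs, and the fusion libraries had 32.2% to 40.9% in 25S-preLSUs and 4.84% to 20.3% in 27SB-preLSUs. This nucleotide was called. At the next one, 2635, the order was the other way, with 39.5% in 25S-preLSUs, against 63.9% in 27SB-preLSUs.

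At m3U2843, a product of Bmt6 (XII, 452339), the window TCR was 41.4% in 25S-preLSUs, against 57.8% in 27SB-preLSUs, with 36.8% to 39.9% and 60.9% to 75.7% in the fusion libraries of 25S-preLSUs and of 27SB-preLSUs. All 4 libraries of 25S-preLSUs were below all 4 of 27SB-preLSUs. The largest part of this difference lay at 2844, 3' of the modified base, where the TCR was 6.44% in 25S-preLSUs, against 39.5% in 27SB-preLSUs. The fusion libraries had 6.81% to 10.6% there in 25S-preLSUs and 40.5% to 51.1% in 27SB-preLSUs. At U2843 itself the libraries without MNase had 27.3% in 25S-preLSUs, against 20.3% in 27SB-preLSUs. Without MNase, m1A2142, m3U2634 and m3U2843 thus had a pattern in common, in which the TCR of 27SB-preLSUs was higher on the 3' neighbour and lower on the modified base than that of 25S-preLSUs. At m1A645 it was higher on both. The fusion pairs did not all share this pattern. At U2843 the TCR was 27.9%, 26.8% and 31.0% in 25S-preLSUs, against 38.6%, 20.2% and 46.3% in 27SB-preLSUs, with MNase-rpL5, MNase-rpL27 and MNase-rpL35. With MNase-rpL27 it was 69.9% at 2635 in 25S-preLSUs, against 57.5% in 27SB-preLSUs, and 71.4% at A2142 in 25S-preLSUs, against 74.6% in 27SB-preLSUs.

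5-Methylcytosines do not block the pairing face and gave little. Around m5C2870, a product of Nop2, the window TCR was 0.130% in 25S-preLSUs, against 0.161% in 27SB-preLSUs, below the noise in both. Around m5C2278, a product of Rcm1, it was 4.52% in 25S-preLSUs, against 31.8% in 27SB-preLSUs. That window reached A2281, where adjacent riboses are methylated, and at C2278 itself the TCR was 0.785% in 25S-preLSUs, against 0.244% in 27SB-preLSUs. The difference at m5C2278 therefore came from the neighbouring nucleotides described below.

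**Figure D2:**
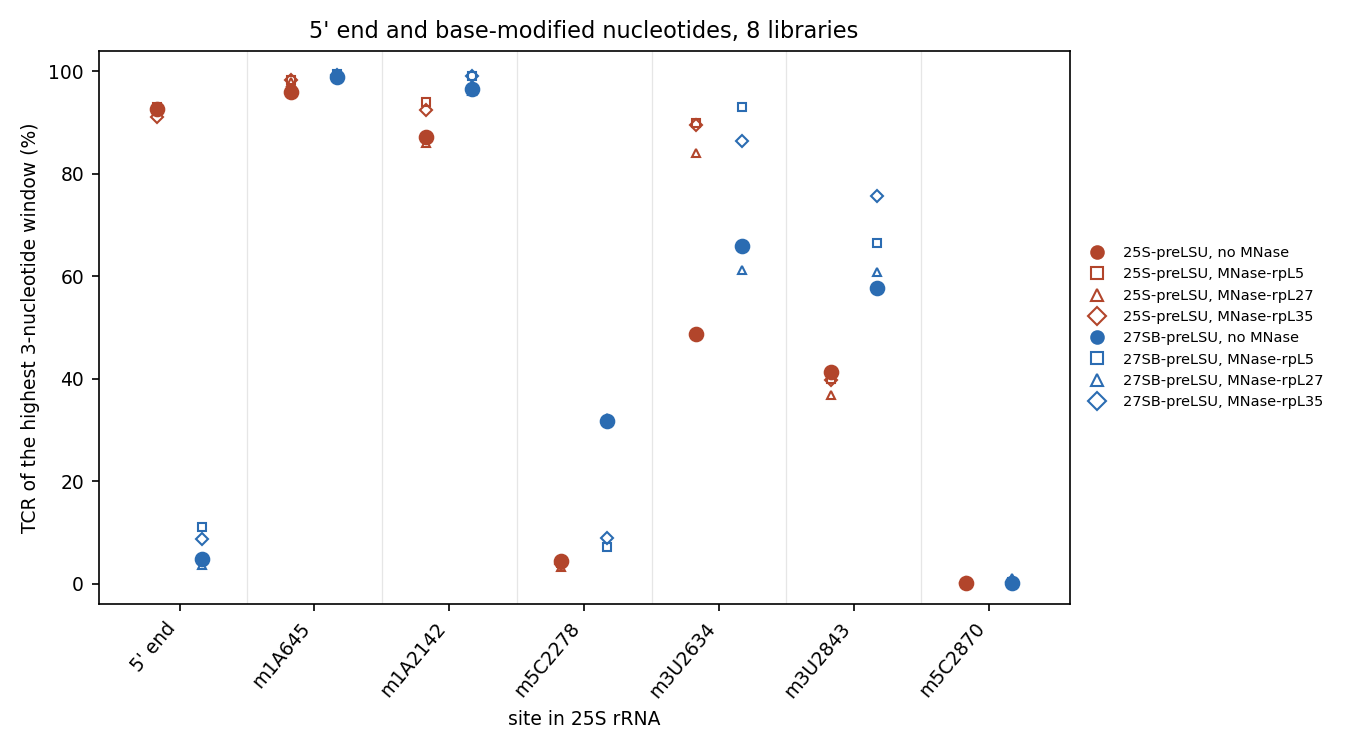
Highest TCR in percent of windows of 3 nucleotides within 2 nucleotides of the 5' end and of the 6 base-modified nucleotides of 25S rRNA, in 25S-preLSUs (red, left) and 27SB-preLSUs (blue, right). Filled circles are libraries without MNase and open symbols the 3 MNase-fusion libraries, and the 5' end separates the purifications in all 8 libraries whereas m3U2634 does not.

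Most early-higher differences lay at riboses methylated on the 2'-hydroxyl, a modification guided by box C/D small nucleolar RNAs. The group was described by a list of 37 such nucleotides of yeast 25S rRNA, taking for each the higher TCR of the nucleotide and its 3' neighbour. Of the 27 early-higher nucleotides 16 lay on or directly 3' of a listed nucleotide, although these positions make up 2.06% of 25S rRNA, and none of the 52 late-higher ones did. Counted by listed nucleotide, 14 of 37 were called higher in 27SB-preLSUs, or 37.8%, against 1.47% of all nucleotides counted in the same way, and 0 of 37 were called higher in 25S-preLSUs. The median over the 37 was 0.138% in 25S-preLSUs, against 3.21% in 27SB-preLSUs. The same pairwise value over all nucleotides had a median of 0.0777% in 25S-preLSUs, against 0.147% in 27SB-preLSUs. In 35 of 37 the value was higher in 27SB-preLSUs, against 49.5% of all nucleotides. Adjacent listed nucleotides, such as A2280 and A2281, can share 1 stop and are then counted with the same value.

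The highest of these stops lay 3' of Um2347, which is guided by snR65. The TCR at nucleotide 2348 (XII, 452834) was 0.449% in 25S-preLSUs, against 27.6% in 27SB-preLSUs. 3' of Am1133, guided by snR61, the TCR at 1134 (XII, 454048) was 0.255% in 25S-preLSUs, against 26.7% in 27SB-preLSUs. At A2281 (XII, 452901), which is methylated like its neighbour A2280 under the guidance of snR13, it was 1.38% in 25S-preLSUs, against 26.2% in 27SB-preLSUs. A run from 806 to 808 followed Gm805 and Am807, guided by snR39b and snR59. At 806 (XII, 454376) the TCR was 0.759% in 25S-preLSUs, against 26.1% in 27SB-preLSUs. At none of these nucleotides was the TCR in 25S-preLSUs without MNase above 1.38%.

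Further called nucleotides of this group lay 3' of Cm2337, a target of snR64, with 0.193% at 2338 in 25S-preLSUs and 16.8% in 27SB-preLSUs, and 3' of Am2220, a target of snR47, with 0.112% at 2221 in 25S-preLSUs and 12.3% in 27SB-preLSUs. At Am2946, a target of snR71, the TCR was 0.235% in 25S-preLSUs, against 11.0% in 27SB-preLSUs. Stops 3' of Gm2288 (snR75) and Cm650 (snR18) and at Am2256 (snR63), Am817 (snR60) and 3' of Um2724 (snR67) ran between 5.71% and 10.6% in 27SB-preLSUs, against 0.130% to 1.31% in 25S-preLSUs. Among the called nucleotides of the group the higher value was mostly on the 3' neighbour. It was on the methylated nucleotide itself at Am807, Am817, Am2256, Am2281 and Am2946, of which A2281 is also the 3' neighbour of Am2280. The 23 listed nucleotides that were not called ranged from 0.0127% to 4.50% in 27SB-preLSUs. Among them, Um2921 and Gm2922 in the A loop, where the protein Spb1 methylates Gm2922, shared a value of 2.62% at G2922 in 27SB-preLSUs, against 0.0883% and 0.110% as the highest values in 25S-preLSUs.

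The 4 libraries of 27SB-preLSUs were not alike at these riboses. The mean over the 37 nucleotides was 7.75% without MNase and 8.49% with MNase-rpL27, but 2.49% with MNase-rpL5 and 2.90% with MNase-rpL35. At 34 of 37 the libraries without MNase and with MNase-rpL27 were both above those with MNase-rpL5 and MNase-rpL35. In 25S-preLSUs the mean was 0.469% without MNase, and 0.627%, 0.568% and 0.637% with MNase-rpL5, MNase-rpL27 and MNase-rpL35. At 28 of 37 no library of 25S-preLSUs passed 1%, and the highest value in any of them was 3.61%, at A649 without MNase. At 29 of 37 all 4 libraries of 27SB-preLSUs lay above all 4 of 25S-preLSUs, as they did at 9.84% of all nucleotides. At 31 of 37 the 3 fusion libraries of 27SB-preLSUs lay above the 3 of 25S-preLSUs. The order of the purifications thus held at most of these riboses in the libraries with low values, but not at all. At G1450 with MNase-rpL5, for example, it was reversed, with 2.68% in 25S-preLSUs, against 1.31% in 27SB-preLSUs. The size of the difference depended on which library of 27SB-preLSUs was taken. A2640 is also a site where MNase-rpL5 cuts, and its 30.3% in 27SB-preLSUs with MNase-rpL5 enters the mean of that library.

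**Figure D3:**
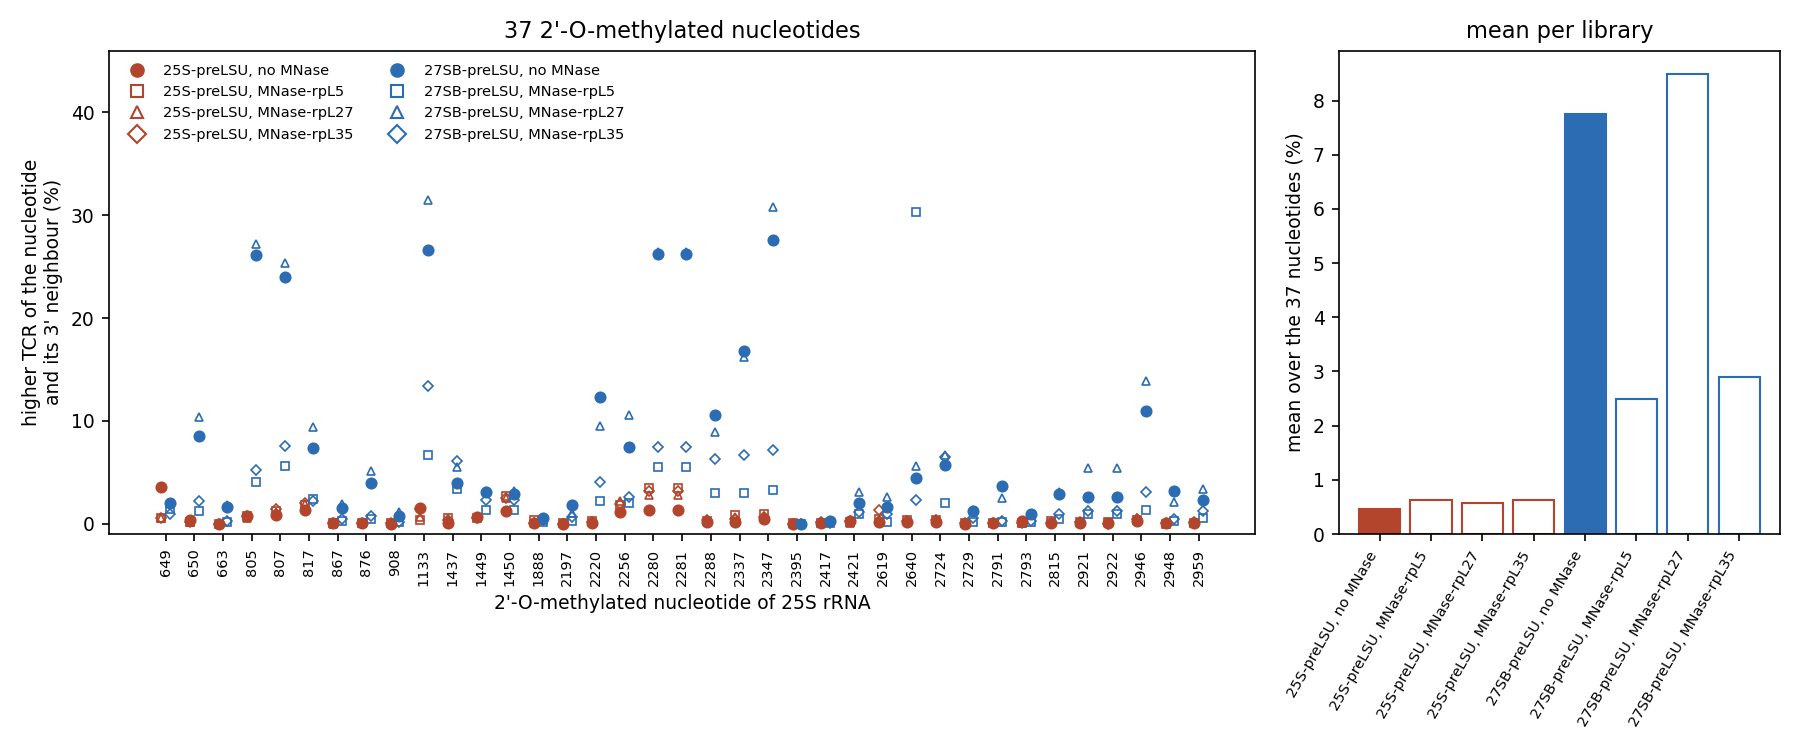
Left, higher TCR in percent of each of 37 2'-O-methylated nucleotides and its 3' neighbour in 25S-preLSUs (red) and 27SB-preLSUs (blue), filled circles without MNase and open symbols with an MNase fusion. Right, the mean over the 37 in each library, which is 0.469% to 0.637% in 25S-preLSUs and 2.49% to 8.49% in 27SB-preLSUs.

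Pseudouridines, which keep their pairing face, gave few stops. Of 30 listed pseudouridines 25 were more than 2 nucleotides away from any listed methylated nucleotide. Taking each with its 3' neighbour, 1 of the 25 was called higher in 27SB-preLSUs, or 4%, against 1.47% of all nucleotides, and 0 higher in 25S-preLSUs, against 2.71% of all nucleotides. The median over the 25 was 0.100% in 25S-preLSUs, against 0.293% in 27SB-preLSUs, and 16 of them were higher in 27SB-preLSUs. The called one was U2133, with 0.105% in 25S-preLSUs, against 9.38% in 27SB-preLSUs. Its fusion libraries in 27SB-preLSUs had 3.12%, 0% and 0%, and it lies just 5' of the strong stop at m1A2142, so that it rests on cDNAs that had passed that stop.

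Apart from methylated nucleotides and their neighbours, 8 early-higher nucleotides were left, among them U2133 and the MNase site A1571 described below. The highest was 2024 (XII, 453158), with 0.604% in 25S-preLSUs, against 36.7% in 27SB-preLSUs, the largest called difference in this direction. The fusion libraries of 25S-preLSUs had 4.53% to 7.09% and those of 27SB-preLSUs 11.2% to 35.2%. The purifications did not overlap there. At 3203 (XII, 451979) the TCR was 1.96% in 25S-preLSUs, against 17.9% in 27SB-preLSUs, with 3.57% to 4.85% and 8.02% to 20.1% in the fusion libraries of 25S-preLSUs and of 27SB-preLSUs. At 1952 it was 0.474% in 25S-preLSUs, against 16.1% in 27SB-preLSUs, where the fusion libraries of 27SB-preLSUs had only 1.71% to 6.23%. Smaller ones lay at 3083, 641 and 524, with 5.26% to 6.38% in 27SB-preLSUs and at most 0.788% in 25S-preLSUs. That at 524 was listed at 0 in the library of 25S-preLSUs and in all 3 fusion libraries of 27SB-preLSUs. That at 641 lies just 5' of the strong stop at m1A645, so it rests on the few cDNAs that had passed that stop.

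Late-higher differences were mostly stops of moderate height away from the listed modifications, with 2 of the 52 within 2 nucleotides of a base-modified nucleotide. Beyond the 5' end, the largest were at 1556 and 983. At 1556 (XII, 453626) the TCR was 55.2% in 25S-preLSUs, against 10.3% in 27SB-preLSUs. The fusion libraries had 22.9% to 42.9% in 25S-preLSUs and 7.06% to 14.0% in 27SB-preLSUs, and did not overlap. Since 1556 lies within 2 nucleotides of the named MNase site A1558, its fusion libraries are no measure of stops without a nuclease. At 983 (XII, 454199) the TCR was 52.1% in 25S-preLSUs, against 7.76% in 27SB-preLSUs. Here the fusion libraries overlapped, with 5.66%, 5.04% and 23.5% in 25S-preLSUs and 9.78%, 6.13% and 4.22% in 27SB-preLSUs with MNase-rpL5, MNase-rpL27 and MNase-rpL35. At 2432 (XII, 452750) the values were 37.3% in 25S-preLSUs, against 8.37% in 27SB-preLSUs, with an overlap of the same kind. At 1369 and 1317 the TCR was 28.5% and 24.95% in 25S-preLSUs, against 7.09% and 4.60% in 27SB-preLSUs, also with overlapping fusion libraries.

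A group of 12 late-higher nucleotides lay within the first 200 nucleotides, 3 of them at the 5' end itself. The largest of the others was at 16 (XII, 455166), with 40.1% in 25S-preLSUs, against 4.29% in 27SB-preLSUs. The fusion libraries had 6.53% to 14.4% in 25S-preLSUs and 2.51% to 5.13% in 27SB-preLSUs. At 43, 11 and 113 the TCR was 24.0%, 21.1% and 20.5% in 25S-preLSUs, against 5.99%, 1.97% and 1.43% in 27SB-preLSUs. Sites at 47, 105 and 149 had 13.4% to 17.8% in 25S-preLSUs and 0.507% to 1.85% in 27SB-preLSUs. Of the 12, all except the nucleotide at 43 had the 3 fusion libraries of 25S-preLSUs above the 3 of 27SB-preLSUs. Over all nucleotides of 25S rRNA 8.63% had this order. In this stretch uncalled nucleotides also had it, among them 5, 6, 8, 13 and 14, so it was not particular to the called ones. Its share over the first 200 nucleotides was not counted. The mean TCR over the first 200 nucleotides was 2.34% in 25S-preLSUs, against 0.651% in 27SB-preLSUs, and 1.30% to 1.68% and 0.463% to 0.591% in the fusion libraries of 25S-preLSUs and of 27SB-preLSUs. The first 3 nucleotides carried much of this. Over nucleotides 4 to 200 the mean was 1.51% in 25S-preLSUs without MNase, against 0.637% in 27SB-preLSUs without MNase, and 0.493% to 0.883% and 0.426% to 0.544% in the fusion libraries of 25S-preLSUs and of 27SB-preLSUs. Over the rest of 25S rRNA it was 0.566% in 25S-preLSUs, against 0.606% in 27SB-preLSUs.

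The remaining 40 late-higher nucleotides were less well shared by the fusion libraries. Only 9 of them had all 3 fusion libraries of 25S-preLSUs above all 3 of 27SB-preLSUs. The median over the 40 was 9.57% in 25S-preLSUs without MNase, 1.66%, 1.50% and 4.27% with MNase-rpL5, MNase-rpL27 and MNase-rpL35, and 1.93% in 27SB-preLSUs without MNase. At 37 of the 40 the library without MNase was the highest of its purification, and at 22 it was over 2 times each of the other 3. Of these other 3, MNase-rpL35 was the highest at 33 of 40. The 40 were called on the value of the library of 25S-preLSUs without MNase, which favoured its place above the fusion libraries in advance. These counts therefore cannot show that the stops belong to that library, and its part in them was not tested.

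**Figure D4:**
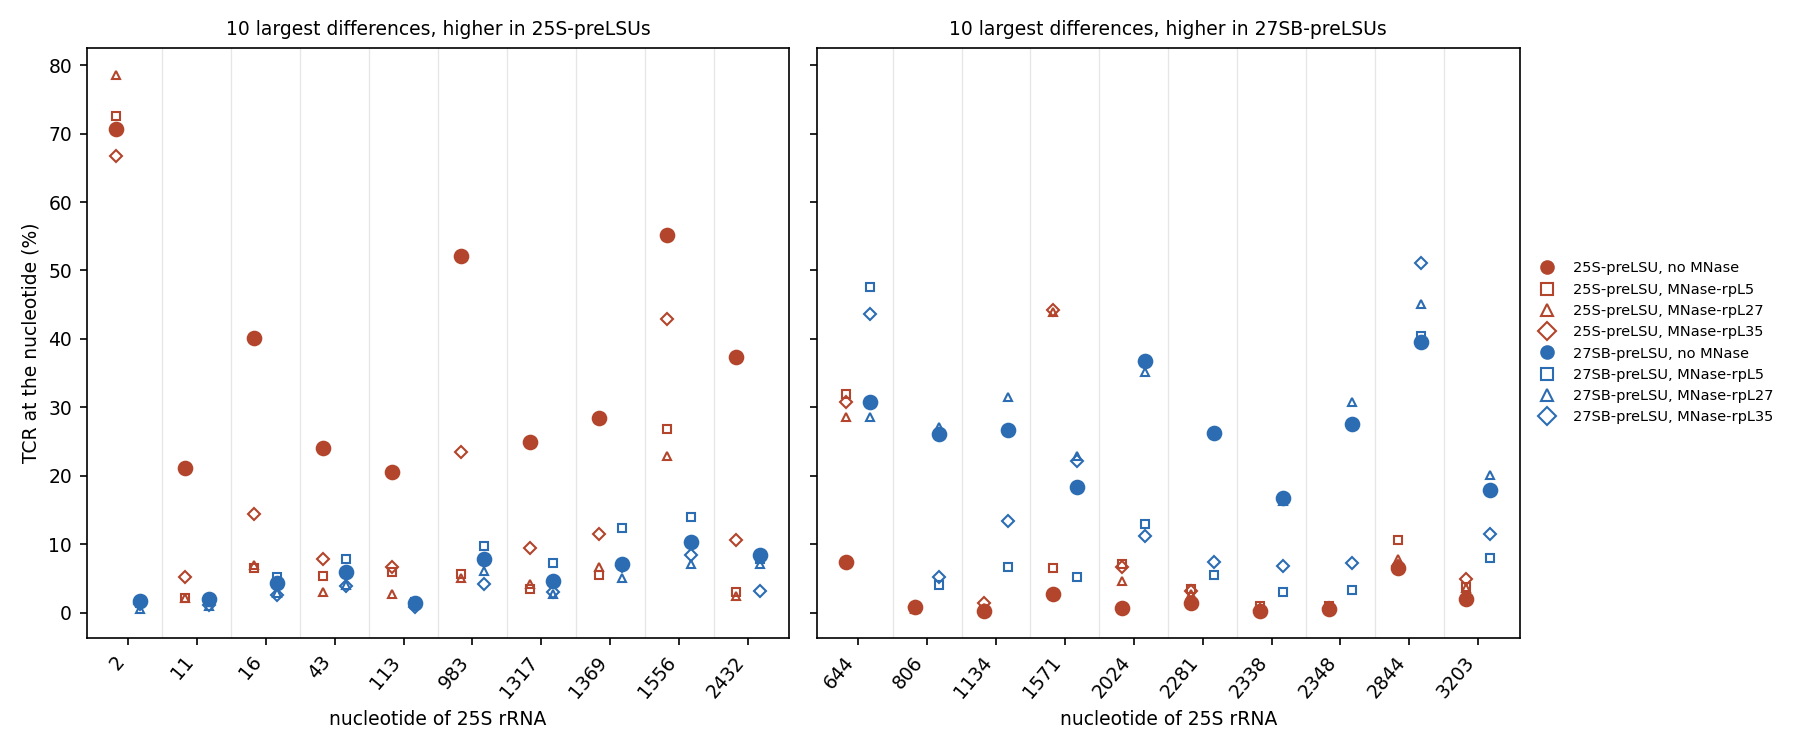
TCR in percent at the nucleotides with the 10 largest called differences higher in 25S-preLSUs (left panel) and higher in 27SB-preLSUs (right panel), in 25S-preLSUs (red) and 27SB-preLSUs (blue), filled circles without MNase and open symbols with a fusion. At 983 the red circle at 52.1% stands above the red open symbols at 5.04% to 23.5%, and at 2348 the blue circle at 27.6% stands beside MNase-rpL27 at 30.8% and above the others at 3.33% and 7.22%.

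Over all calls, the order of the 6 fusion libraries, which the calls did not use, went with the called direction more often for early-higher than for late-higher nucleotides. Of the 52 late-higher nucleotides 20 had all 3 fusion libraries of 25S-preLSUs above all 3 of 27SB-preLSUs, or 38.5%, against 8.63% of all nucleotides. Among these 20, 11 lay in the first 200 nucleotides, where uncalled nucleotides had this order too. The other 9 were among the 40 late-higher nucleotides beyond them. Of the 27 early-higher ones 20 had all 3 of 27SB-preLSUs above all 3 of 25S-preLSUs, or 74.1%, against 13.9% of all nucleotides. Among these 20, 15 were of the 16 on or directly 3' of a listed methylated ribose. The share of 74.1% thus came mostly from that group and was lower among the other 11 early-higher nucleotides. An exact test of 3 libraries against 3 cannot give a p below 0.1, so no nucleotide was tested alone, and the fusions cut at different places. When each pair of fusion libraries was compared by the same rule in place of the pair without MNase, MNase-rpL5 gave 16 late-higher and 21 early-higher nucleotides, MNase-rpL27 29 and 47, and MNase-rpL35 41 and 18. Of the 52 late-higher nucleotides 8, 8 and 24 were called again with MNase-rpL5, MNase-rpL27 and MNase-rpL35. Of the 27 early-higher ones 4, 21 and 11 were called again.

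A set of stops was present in both precursors, at heights whose difference did not meet the limits for a call. Of the 36 shared stops 26 had no called difference. Besides those at modified bases, the highest was at 440 (XII, 454742), with 36.9% in 25S-preLSUs, against 27.4% in 27SB-preLSUs. At 209, 114 and 3213 the TCR was 19.1%, 23.5% and 22.2% in 25S-preLSUs, against 15.3%, 13.8% and 12.2% in 27SB-preLSUs. At 619 it was 9.92% in 25S-preLSUs, against 11.5% in 27SB-preLSUs. Each of these was below 2-fold, and the fusion libraries did not keep the order. At 440 they went in the other direction, with 3.74% to 11.9% in 25S-preLSUs and 14.0% to 30.6% in 27SB-preLSUs. So they did at 114, with 3.81% to 8.65% in 25S-preLSUs and 9.94% to 18.4% in 27SB-preLSUs. At 619 all 3 fusion pairs were higher in 25S-preLSUs, with 28.4%, 22.2% and 43.0%, against 15.0%, 9.09% and 27.9% in 27SB-preLSUs. At 209 and 3213 the fusion pairs were lower in 25S-preLSUs with MNase-rpL5 and MNase-rpL27 and higher with MNase-rpL35.

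Finally, the 12 nucleotides of 25S rRNA at which the study names an MNase cut were read without MNase as their background. At 11 of them no difference was called on the nucleotide itself. U250, G1001, U1764, U2068, A2089, A2540, U2570 and A2643 had at most 0.665% in 25S-preLSUs and at most 1.35% in 27SB-preLSUs, and U1568 had 1.58% in 25S-preLSUs, against 1.72% in 27SB-preLSUs. The exception was A1571 (XII, 453611), with 2.77% in 25S-preLSUs, against 18.4% in 27SB-preLSUs without MNase. There the fusion libraries had 6.54%, 43.9% and 44.2% in 25S-preLSUs and 5.24%, 22.9% and 22.1% in 27SB-preLSUs with MNase-rpL5, MNase-rpL27 and MNase-rpL35. Near A1558 the stop at 1556 described above was present without MNase, and 1557 had 8.05% in 25S-preLSUs, against 14.8% in 27SB-preLSUs. At A2640 the TCR without MNase was 0.213% in 25S-preLSUs, against 4.04% in 27SB-preLSUs. The study scored its cuts over the nucleotide and its direct neighbours. Over that window, without MNase, U1568 had 2.68% in 25S-preLSUs, against 7.64% in 27SB-preLSUs, and A2640 had 0.426%, against 8.997%. Both differences met the limits for a call, as did that at A1571. A1558 had 9.10%, against 16.6%, under the 2-fold limit. The other named sites had at most 0.935% in 25S-preLSUs and at most 2.69% in 27SB-preLSUs.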

How the data were processed

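Random primer extension libraries of LSU precursors, 1 per condition, had been sequenced in pairs by the authors. Per the study's methods, reads were mapped to the S288c rDNA region with Bowtie2, an equal number of mapped reads was drawn for every library, and fragments were collapsed by random barcodes. The submitters' processing notes name Bowtie2, R64 and sacCer3, and the version of Bowtie2 is unknown here. The deposited values are fractions, the termination to coverage ratio and a noise estimate made by the authors from virtual datasets of all 4 libraries of a purification. Coverage is not in the table, so the depth per nucleotide is unknown. Here fractions were multiplied to percent and rows were matched by position. Stops and differences were called by the limits stated in the text (minimum 5%, ratio 2) in Python 3 with pandas and numpy. Simulated profiles with values placed above and below these limits checked only that the rule was carried out. They do not tell how often single libraries differ without a cause in the precursors. Windows of 3 nucleotides were computed as 1 minus the product of 1 minus TCR. No model was fitted and no p was computed, since each group holds 1 library. The text names the base-modified nucleotides, the 5' end, the MNase sites, the 10 highest stops of each library, the 10 largest called differences in each direction (nucleotides within 2 joined), and listed modified nucleotides that passed. The lists of 37 methylated riboses and 30 pseudouridines are from general knowledge, and their bases could not be checked against a sequence. Members and lists were chosen with earlier results of these data known. Other shared or called sites named besides these were chosen after their values were seen. Alternatives varied the minimum, the noise limit, the ratio, the window and the nucleotides kept.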

Additional observations from a re-analysis of the deposited data

Results flagged for a closer look

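At 3 nucleotides the difference between the libraries without MNase was called in one direction while each of the 3 fusion pairs differed in the other. The difference between these contrasts was not tested. At 490 the TCR was 9.43% in 25S-preLSUs, against 1.64% in 27SB-preLSUs without MNase, a difference of 7.79 percentage points, whereas the fusion pairs had 0.382%, 1.45% and 5.49% in 25S-preLSUs and 6.61%, 1.59% and 9.76% in 27SB-preLSUs with MNase-rpL5, MNase-rpL27 and MNase-rpL35. At 2837 it was 9.98% in 25S-preLSUs, against 2.82% in 27SB-preLSUs, a difference of 7.15 points, against 0.962% to 1.10% and 1.48% to 2.09% in the fusion libraries of 25S-preLSUs and of 27SB-preLSUs. At A1571 the difference of 25S-preLSUs minus 27SB-preLSUs was -15.6 points without MNase, and it was positive in all 3 fusion pairs. A1571 is a site named for MNase cuts, so its fusion libraries are no measure of stops without a nuclease.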

How the results depend on the processing

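The counts of stops and calls, the rank correlation and the stops at base-modified nucleotides were recomputed under the alternatives, and the methylated riboses and pseudouridines were not. The counts moved with the height asked of a stop. With a minimum of 10% there were 47 stops in 25S-preLSUs and 37 in 27SB-preLSUs, with 29 differences higher in 25S-preLSUs and 17 higher in 27SB-preLSUs. With a minimum of 2% there were 161 and 138 stops, 90 and 63 differences, and 77 called nucleotides with the fusion libraries in the same order, against 40 in all. Windows of 3 nucleotides gave 212 and 210 stops, 141 and 89 differences and 96 with the fusion libraries in the same order, since each strong nucleotide then enters several windows. The noise limit, the ratio, the nucleotides listed at 0 and those near MNase sites left each count within 1.5 times. Leaving out the noise limit changed no count of stops or calls, so at a minimum of 5% it excluded nothing. The Spearman rank correlation of the profiles was 0.19 over nucleotides above the noise in at least 1 library and 0.67 over windows. Of the 5' end and the 6 base-modified nucleotides 2 were called by windows and 1, the 5' end, by single nucleotides. Alternatives chosen after seeing the data put a fusion pair in place of the pair without MNase. MNase-rpL27 then gave 53 stops in 25S-preLSUs and 69 in 27SB-preLSUs. Differences higher in 25S-preLSUs and in 27SB-preLSUs numbered 16 and 21 for the MNase-rpL5 pair, 29 and 47 for the MNase-rpL27 pair, and 41 and 18 for the MNase-rpL35 pair, so that MNase-rpL5 and MNase-rpL27 turned the order of the 2 counts. With the library of 25S-preLSUs alone replaced, they numbered 25 and 36, 33 and 42, and 45 and 32 with the same fusions. With that of 27SB-preLSUs alone replaced, they numbered 48 and 21, 60 and 39, and 61 and 34. No paired analysis was possible because each group holds 1 library. No library could be left out for the same reason.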
